A study of Mus musculus with 73 samples.

Results

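The genes described here are blastocyst genes whose transcripts already stood near their blastocyst level at the 8-cell stage in embryos labelled p150DN. They were chosen by group means of log2(FPKM + 1), where FPKM is the count of fragments scaled to gene length and library size. The means were E for EGFP 8-cell embryos, P for p150DN 8-cell embryos and B for EGFP blastocysts. A gene was taken when B lay at least 2 above E, when its mean blastocyst level was at least 10 FPKM, and when (P-E)/(B-E), called the fraction reached, was at least 0.8. Genes without a proper name (symbols beginning with Mir or with Gm and a number, or ending in Rik) were set aside. Of 25220 gene symbols, 453 met the thresholds on rise and level and are called blastocyst genes here. Of these, 38 (8.39%) also met the threshold on the fraction and form the module. Values of all 8 libraries chose the genes, so their differences P-E, B-E and P-B are given as descriptions and support nothing. P-E and B-E also share the EGFP 8-cell libraries.

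The libraries belong to a study of how histone H3.3 is distributed in preimplantation mouse embryos. Total RNA was sequenced in 3 libraries labelled EGFP at the 8-cell stage, 3 labelled p150DN at the same stage, and 2 labelled EGFP at the blastocyst stage. All embryos had the strain label hybrid C57BL/6 / C3H and were kept in the culture medium KSOM. The EGFP libraries are the controls, as their sample descriptions say. For the embryos of its chromatin experiments the labels state that mRNA coding for EGFP, or for EGFP joined to a dominant-negative p150 (p150DN), was put into the cytoplasm of zygotes. The same is not spelled out for the RNA libraries, nor is the number of embryos per library. p150DN embryos were sequenced at the 8-cell stage, and p150DN blastocysts were not analysed here. The labels do not give separate cultures for the replicates, so every p-value speaks only of library-to-library spread, part of which may be technical.

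CAF-1, chromatin assembly factor 1, loads histones H3 and H4 onto DNA behind the replication fork, and p150, the product of Chaf1a, is its largest subunit. A dominant-negative form of a subunit is one that disturbs the working of the endogenous complex. At the 8-cell stage the embryo compacts, and later its outer cells become the trophectoderm epithelium, its inner cells the inner cell mass, and a fluid cavity opens at the blastocyst stage. The gene groups that recur among the 38 are also known from other settings. The transcription factor p53, product of Trp53, is stabilised by DNA damage and other stress and turns on genes of arrest and cell death. Immediate early genes such as Jun respond within minutes to growth factors or stress without new protein synthesis.

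The FPKM of Chaf1a was 27.7, 30.2 and 28.8 in EGFP 8-cell libraries, 165, 254 and 238 in p150DN libraries, and 26.5 and 27.2 in blastocyst libraries, so the label p150DN goes with a high Chaf1a level in each of its libraries. A gene-level value cannot tell endogenous Chaf1a from introduced sequence. The libraries held between 16578221 and 22488477 fragments. The EGFP 8-cell libraries had 17310 to 18402 genes above 0, the blastocyst libraries 18547 and 18991, and p150DN replicates 1, 2 and 3 had 18412, 20465 and 21282. The labels number p150DN replicate 1 among the EGFP 8-cell libraries and replicates 2 and 3 after the blastocyst libraries, and do not say whether that marks a batch. Of the 38 trophectoderm markers, summed levels were 518 to 645 FPKM in EGFP 8-cell, 862 to 1257 in p150DN and 1962 and 2154 in blastocyst libraries, and those of 25 inner cell mass markers were 3850 to 4375 FPKM in all 8. Markers of other cells were low. The 16 cumulus and granulosa markers summed to 20.1 to 25.8 FPKM in EGFP 8-cell, 7.06 to 16.4 in p150DN and 2.62 and 3.18 in blastocyst libraries. Those of 10 fibroblast markers summed to 0.514 to 0.777, 1.36 to 4.06 and 0.906 to 0.916 FPKM, those of 10 blood markers to 3.00 to 5.81, 7.02 to 9.47 and 3.71 to 3.98 FPKM, and those of 10 sperm markers to 1.21 to 2.35, 2.38 to 5.77 and 1.63 to 2.41 FPKM in the same order. In every library each of these 4 lists had at least 1 gene at 0, and 1 or 2 of the 16 cumulus and granulosa markers and at most 3 of each other list reached 1 FPKM. Their part in the results was not tested.

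The module holds genes of quite different kinds. It has all 5 blastocyst genes of the p53 target list used here, Trp53 itself, 3 immediate early genes, and 1 or 2 members each of junction, matrix, cytoskeletal, lipid and stress-response lists. That p53 list is not complete: Trp53i11, a blastocyst gene outside the module, is not in it. The module held none of the 16 trophectoderm markers among the blastocyst genes. In all, 17 of the 38 were in a gene list of a function or an embryo lineage and 21 were in none. Across the 453 blastocyst genes the fraction reached had a median of 0.59, with the middle of the genes between 0.48 and 0.70 (quartiles) and a range of 0.041 to 1.44. Another 406 genes lay between 0.2 and 0.8 and 9 below 0.2. Within the module, 20 genes had a fraction of 0.8 to 0.9, 14 of 0.9 to 1.1 and 4 above 1.1. The rise between the stages was of like size in the module and in all blastocyst genes, with medians of B-E of 2.57 and 2.61 on the log2 scale, while the medians of P-E were 2.41 and 1.54. In bulk samples more cells that express a gene and more RNA per cell cannot be told apart.

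**Figure D1:**
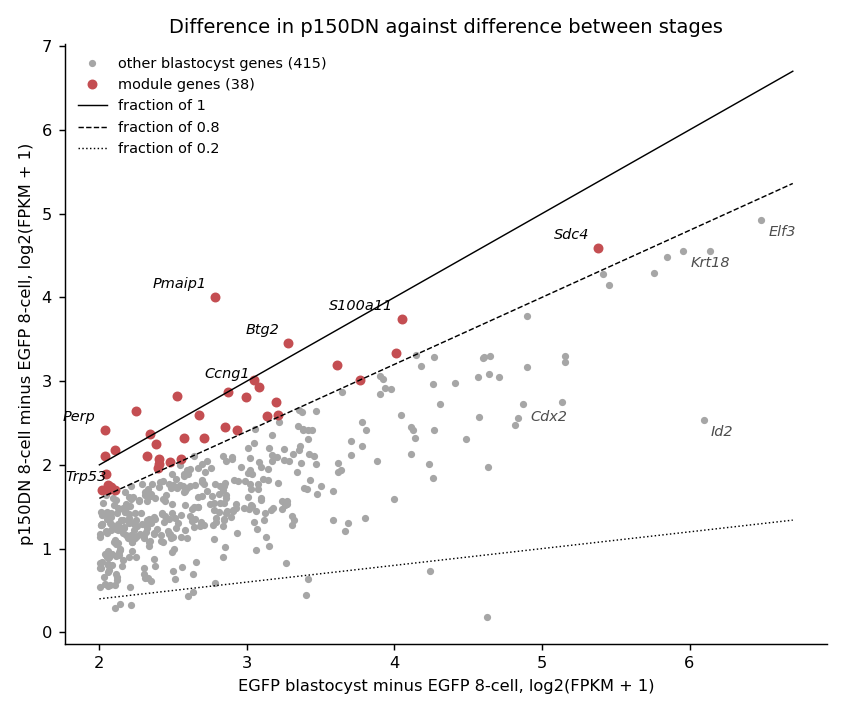
Difference between p150DN and EGFP 8-cell embryos (vertical axis) against difference between EGFP blastocysts and EGFP 8-cell embryos (horizontal axis), both in log2(FPKM + 1) of group means, for 453 blastocyst genes. The 38 module genes (red) lie on or above the dashed line of 0.8 by their choice, 8 of them on or above the solid line of 1, and 9 genes lie below the dotted line of 0.2.

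In every module gene the 3 p150DN libraries lay above the 3 EGFP 8-cell libraries. The same held for 34.3% of all 11730 genes tested. By limma (adjusted p below 0.05) all 38 were higher in p150DN than in EGFP 8-cell embryos, where 24.6% of the genes tested were, and all 38 were higher in blastocysts than in EGFP 8-cell embryos, where 42.6% of 12199 were. The rule used both contrasts, so nothing is read from these counts. At the start the genes were low: 3 or 4 of the 38 reached 10 FPKM in each EGFP 8-cell library, against 34 or 35 in each p150DN library and 36 and 38 in the blastocyst libraries. Mean levels ran from 0.773 to 13.9 FPKM in EGFP 8-cell, 8.09 to 110 FPKM in p150DN and 10.4 to 198 FPKM in blastocyst libraries. The plot of levels by library shows this gap for each gene.

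**Figure D2:**
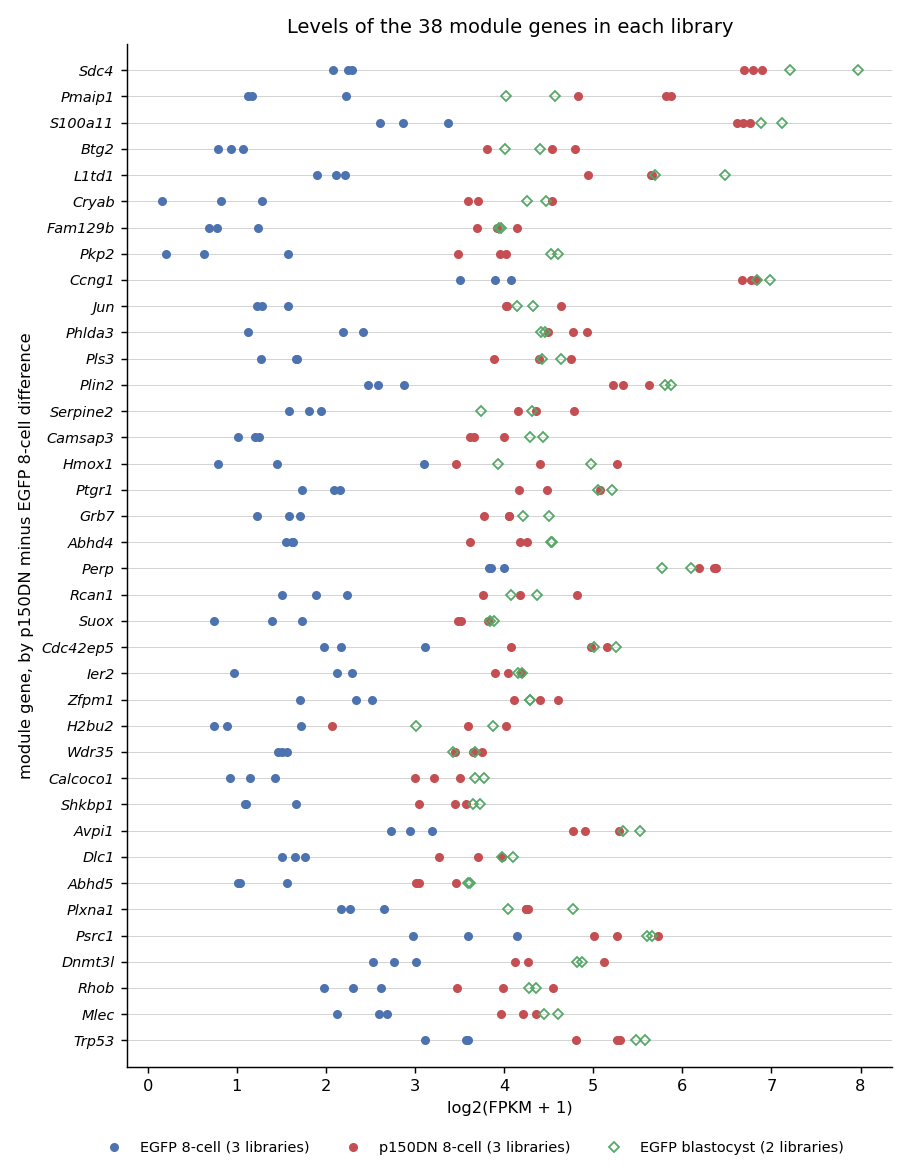
Levels of the 38 module genes in log2(FPKM + 1), 1 point per library, for 3 EGFP 8-cell (blue), 3 p150DN 8-cell (red) and 2 EGFP blastocyst libraries (green diamonds), ordered by the p150DN difference. Red points lie to the right of all blue points in each row, and relative to the diamonds they lie wholly above in 3 rows, wholly below in 17 and overlapping in 18.

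The p53 group held some of the largest p150DN differences in the module. Pmaip1, which encodes the pro-apoptotic BH3-only protein Noxa, stood at 1.25, 3.67 and 1.19 FPKM in EGFP 8-cell libraries, 27.3, 57.7 and 55.6 in p150DN libraries and 15.2 and 22.7 in blastocyst libraries. Every p150DN library was above both blastocyst libraries, and its fraction of 1.44 (P-E of 4.00, B-E of 2.79 on the log2 scale) was the highest of the 453. Ccng1, which encodes cyclin G1 (chromosome 11, 40748552 to 40755309), was at 15.9, 10.4 and 13.955 FPKM in EGFP 8-cell, 112, 101 and 109 in p150DN and 113 and 126 in blastocyst libraries. Its p150DN libraries lay close to each other (SD of log2 values of 0.08, n = 3) and just under the blastocyst libraries, with a fraction of 0.95.

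Perp, a tetraspan protein of desmosomes and a p53 target in cell death (chromosome 10, 18845071 to 18857073), was at 15.0, 13.5 and 13.2 FPKM in EGFP 8-cell, 71.8, 82.3 and 80.6 in p150DN and 67.5 and 53.4 in blastocyst libraries. Phlda3, which encodes a small protein that restrains AKT signalling (chromosome 1, 135766085 to 135769134), was at 4.32, 1.18 and 3.56, at 26.3, 29.5 and 21.4, and at 21.1 and 20.3 FPKM in the same order. In both genes the p150DN libraries lay wholly above the blastocyst libraries, for Phlda3 by a margin of less than 1 FPKM, and the fractions were 1.18 and 1.12. Btg2, an antiproliferative gene (chromosome 1, 134074865 to 134079155), went from 1.09, 0.722 and 0.906 FPKM in EGFP 8-cell to 26.7, 22.2 and 12.97 in p150DN libraries, which overlapped the blastocyst values of 20.2 and 15.1 FPKM. Its fraction was 1.05, but replicate 3 alone gave 0.88.

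Trp53 itself (chromosome 11, 69580348 to 69591873) was among the last genes to enter, with a fraction of 0.81. Its levels were 11.1, 10.9 and 7.64 FPKM in EGFP 8-cell, 37.4, 27.0 and 38.3 in p150DN and 43.6 and 47.0 in blastocyst libraries. All p150DN libraries lay under both blastocyst libraries, and replicate 2, at a fraction of 0.66, was under the threshold by itself. Trp53 also dropped out of the module with median-of-ratios scaling and with quantile normalization. The 5 target genes had a median fraction of 1.12 (0.95 to 1.44), against 0.59 for all blastocyst genes. In p150DN replicates 1, 2 and 3 their median was 1.13, 1.19 and 1.02.

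Other p53 targets were higher in p150DN embryos too, without being blastocyst genes by the rule. Of the 40 genes in the list 35 lay outside the module, and of the 30 tested 18 rose and 4 fell (limma, adjusted p below 0.05, where 24.6% and 9.68% of all genes tested did). Their median log2 difference was 0.89, against 0.19 over all genes tested. These counts are descriptions, as the list was chosen with earlier results of these data known. The 3 largest differences were of Ephx1, Eda2r and Tap1. Ephx1, which encodes the detoxifying microsomal epoxide hydrolase, was at 0.414, 0.881 and 0.773 FPKM in EGFP 8-cell and 7.65, 12.97 and 12.2 FPKM in p150DN libraries (log2 difference 2.80 ± 0.24 SE, limma adjusted p = 0.00022). It was below 1 FPKM in every EGFP 8-cell library and so entered the test only through the p150DN libraries. Its p-value is therefore a description. Its fraction would have been 1.19, but at 9.44 and 5.96 FPKM the blastocyst libraries were under the level asked for. Eda2r, a receptor of the TNF receptor family, rose by 2.10 ± 0.23 (adjusted p = 0.00049) and Tap1, a peptide transporter of antigen presentation, by 2.05 ± 0.23 (adjusted p = 0.00055).

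Cdkn1a, which encodes the cell cycle inhibitor p21, was singled out after its values were seen. It stood at 28.1, 30.0 and 22.8 FPKM in EGFP 8-cell, 85.2, 154 and 86.9 in p150DN and 34.3 and 31.9 in blastocyst libraries. It rose in p150DN (log2 difference 1.92 ± 0.23, limma adjusted p = 0.00068), while its difference between the stages was 0.29 (adjusted p = 0.11). The p53 targets outside the module included genes far above both control stages as well as genes near blastocyst level. Without p150DN replicates 2 and 3 the count of risen targets outside the module was 10 of 27 tested (12.5% over all genes tested), and the module chosen without them still held all 5. In that fit the spread comes from the EGFP libraries alone, and the lone p150DN library is assumed to vary like them.

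RefSeq promoters (GRCm38.p6, 250 bases before to 50 after a gene's start) were matched for 28 of the 38, with 35 promoters, and for 27025 genes with 32851 promoters in all. Those of the module were rich in G and C, with a median of 60.3% and 17 CpG sites, near the 62.0% and 19 sites of the other blastocyst genes and above the 52.7% and 7 sites of all promoters. A p53 half-site was found in 4 of the 35 (11.4%), in 6.52% of those of other blastocyst genes and in 8.36% of all promoters. The 4 were those of Ccng1, Trp53 and H2bu2 and an inner promoter of Abhd4 (chromosome 14, 54259033 to 54259332). The promoter at the outer start of Abhd4 had no match. Of the other p53 targets in the module, Btg2 and Phlda3 had no match in this window, and Pmaip1 and Perp had no promoter in the table. The AP-1 motif TGACTCA or TGAGTCA was in 5.71%, 6.04% and 5.20%, the CRE motif TGACGTCA in 5.71% (2 of 35), 1.69% and 1.79%. The GC box GGGCGG or CCGCCC was in 71.4%, 66.2% and 35.7%, the CCAAT box CCAAT or ATTGG in 54.3%, 44.2% and 37.4%, and the TEAD motif CATTCC or GGAATG in 7 of the 35, 12.6% and 14.7%. Both strands were searched, and the p53 half-site was added after the values were seen. With 35 promoters a single match is worth several percent, so these shares are descriptions. Promoters of the same gene were counted separately. Several of the 7 with the TEAD motif belong to Pls3, and some of those overlap each other. Below are the bases from 250 to 31 before the start, 5′ to 3′ on the gene's strand, of 5 genes that carry the largest differences or the p53 group, with the named motif in capitals.

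Ccng1, p53 half-site at -185 (GRCm38.p6, chr11:40755317-40755536, minus strand): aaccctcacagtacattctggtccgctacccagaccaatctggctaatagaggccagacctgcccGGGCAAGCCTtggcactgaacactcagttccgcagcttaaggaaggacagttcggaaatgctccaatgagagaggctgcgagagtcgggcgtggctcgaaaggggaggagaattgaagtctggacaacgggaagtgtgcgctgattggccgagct

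Trp53, p53 half-site at -75 (chr11:69580109-69580328, plus strand): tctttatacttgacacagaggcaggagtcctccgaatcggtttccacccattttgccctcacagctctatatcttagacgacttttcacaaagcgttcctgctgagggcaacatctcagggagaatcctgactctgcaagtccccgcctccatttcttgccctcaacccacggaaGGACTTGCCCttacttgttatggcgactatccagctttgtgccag

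Btg2, CRE at -166 (chr1:134079186-134079405, minus strand): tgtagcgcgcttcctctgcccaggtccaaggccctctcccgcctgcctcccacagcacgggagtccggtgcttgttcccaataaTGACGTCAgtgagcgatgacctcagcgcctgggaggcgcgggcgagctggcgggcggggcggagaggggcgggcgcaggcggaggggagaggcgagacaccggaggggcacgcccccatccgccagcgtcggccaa

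S100a11, AP-1 motif at -136 and -38 (chr3:93520246-93520465, plus strand): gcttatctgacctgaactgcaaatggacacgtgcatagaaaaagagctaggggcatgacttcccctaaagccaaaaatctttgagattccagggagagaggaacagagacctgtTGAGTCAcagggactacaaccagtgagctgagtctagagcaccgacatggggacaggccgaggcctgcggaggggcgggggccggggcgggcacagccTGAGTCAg

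Sdc4, GC box at -166, -154, -72 and -50 (chr2:164443219-164443438, minus strand): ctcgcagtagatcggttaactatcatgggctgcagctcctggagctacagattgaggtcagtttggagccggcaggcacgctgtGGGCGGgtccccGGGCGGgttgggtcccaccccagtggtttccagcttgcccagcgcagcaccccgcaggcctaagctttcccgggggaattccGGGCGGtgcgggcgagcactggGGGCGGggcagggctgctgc

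Motif positions count from the gene's start, with the base before it as -1, and a match says only that these letters are there.

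The immediate early group in the module was Jun, Ier2 and Rhob. Jun, the central subunit of the AP-1 transcription factor (chromosome 4, 95049036 to 95052222), was at 1.34, 1.43 and 1.98 FPKM in EGFP 8-cell, 15.3, 15.3 and 23.96 in p150DN and 16.7 and 19.0 in blastocyst libraries. Its group means in p150DN and blastocyst were equal to within 0.01 on the log2 scale, a fraction of 1.00, with overlapping libraries. Ier2, an early nuclear regulator (chromosome 8, 84661331 to 84662852), was at 3.91, 3.35 and 0.951, at 15.4, 13.9 and 17.2, and at 17.4 and 16.8 FPKM in the same order (fraction 0.94). Rhob, a small GTPase of the actin cytoskeleton and of endosomes (chromosome 12, 8497661 to 8500009), was at 3.93, 5.16 and 2.93, at 14.9, 10.1 and 22.4, and at 18.4 and 19.5 FPKM. Its 3 p150DN libraries differed among themselves, with fractions of 0.84, 0.58 and 1.11 around the mean of 0.84.

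Of the 31 genes in the immediate early and AP-1 list, 5 were blastocyst genes. Those not in the module were Klf6, a zinc finger factor, with a fraction of 0.43, and Dusp4, a phosphatase that turns off MAP kinases, with 0.53. Outside the module 13 of 22 tested genes rose in p150DN and 1 fell (limma, 24.6% and 9.68% over all genes tested). The largest differences were of Fosl1, another AP-1 subunit (2.38 ± 0.48, adjusted p = 0.0061), Tob1, an antiproliferative relative of Btg2 (2.30 ± 0.29, adjusted p = 0.00084), and Dusp4 (1.92 ± 0.54, adjusted p = 0.024). Fosl1 shows how uneven the p150DN libraries were: it was at 1.90 FPKM in replicate 1 and at 10.4 and 8.49 in replicates 2 and 3, against 0, 0.261 and 0.758 in EGFP 8-cell and 0.454 and 0.861 FPKM in blastocyst libraries. Like Ephx1, Fosl1 entered the test only through the p150DN libraries, so its p-value is a description. The count of 13 was 8 without p150DN replicate 2 and 6 without replicate 3. Without both it was 3 of 17 tested. Without filter on low values it was 9, and with a filter of 5 FPKM 7.

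Genes of the cell surface and of epithelial structure made up another group. Sdc4, the heparan sulfate proteoglycan syndecan-4 (chromosome 2, 164424247 to 164443188), had the largest p150DN difference of the module, 4.59 on the log2 scale. It stood at 3.22, 3.76 and 3.91 FPKM in EGFP 8-cell, 118, 103 and 110 in p150DN and 249.4 and 147.1 in blastocyst libraries. The p150DN libraries were close together and all under the blastocyst libraries, at a fraction of 0.85. S100a11, a calcium-binding partner of annexins (chromosome 3, 93520496 to 93526288), was at 9.34, 5.10 and 6.26, at 102, 96.7 and 107, and at 117 and 138 FPKM in the same order, a fraction of 0.92. In these and in Ccng1 and Perp the p150DN libraries had SDs of 0.07 to 0.11 on the log2 scale, among the 5 smallest of the module.

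Pkp2, the desmosomal plaque protein plakophilin 2 (chromosome 16, 16213345 to 16272712), had the lowest fraction of the module, 0.80. It was at 0.548, 0.154 and 1.97 FPKM in EGFP 8-cell, 15.2, 10.2 and 14.5 in p150DN and 22.1 and 23.3 in blastocyst libraries. Pls3, the actin bundling protein plastin 3 (chromosome X, 75785653 to 75875182), was at 1.41, 2.16 and 2.20, at 13.8, 19.98 and 25.97, and at 20.5 and 23.8 FPKM (fraction 0.94). Serpine2, an inhibitor of serine proteases outside the cell (chromosome 1, 79794317 to 79858665), was at 2.85, 2.00 and 2.52, at 19.4, 16.8 and 26.4, and at 18.9 and 12.4 FPKM (fraction 1.18). Pkp2 stayed wholly under the blastocyst libraries, while Pls3 and Serpine2 overlapped them.

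These genes were the minority within their own lists. Of 9 blastocyst genes in the junction list the 2 in the module were Pkp2 and Perp. Dsg2, a desmosomal cadherin, and Epcam, an epithelial adhesion molecule, had fractions of 0.40 and 0.49. Of 19 in the keratin and actin list Pls3 alone was in the module, and the lowest was Cnn2, an actin-binding calponin, at 0.14. Of 6 annexin and S100 genes S100a11 alone was in, with S100a10 at 0.794 and Anxa2 at 0.790 next and Anxa6 lowest at 0.33. Of 7 matrix and adhesion genes Sdc4 and Serpine2 were in, with Col4a1, a basement membrane collagen chain, at 0.78.

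Stress-response and lipid genes of the module were Hmox1, Cryab and Plin2, and Abhd5, which is in no list, is given beside Plin2. Hmox1, the haem-degrading oxygenase (chromosome 8, 75093618 to 75100593), was at 1.74, 7.56 and 0.722 FPKM in EGFP 8-cell, 10.03, 20.2 and 37.4 in p150DN and 14.3 and 30.5 in blastocyst libraries. Its replicates spread widely in all groups, and the p150DN fractions were 0.63, 0.98 and 1.30. Plin2, a coat protein of lipid droplets (chromosome 4, 86626910 to 86670217), was at 4.56, 4.98 and 6.33, at 36.2, 39.4 and 48.3, and at 54.9 and 57.4 FPKM (fraction 0.86). Abhd5, which helps the lipase of those droplets (chromosome 9, 122351616 to 122381524), was at 1.02, 1.96 and 1.05, at 7.06, 9.97 and 7.22, and at 11.1 and 11.3 FPKM (fraction 0.82). Plin2 and Abhd5 stayed under the blastocyst libraries in every p150DN library.

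Cryab, the small heat shock protein alpha-B crystallin (chromosome 9, 50745951 to 50756636), was at 0.118, 0.766 and 1.43 FPKM in EGFP 8-cell, 12.0, 11.1 and 22.1 in p150DN and 18.1 and 21.2 in blastocyst libraries. The lowest of these values rests on 3 fragments. Of 15 antioxidant and detoxification genes among the blastocyst genes Hmox1 alone was in the module, and Cat, the catalase gene, stood just outside at 0.799, as did Sqstm1, a selective autophagy receptor, at 0.798. Of 10 blastocyst genes in the lipid list Plin2 alone was in, with Srebf2, the regulator of sterol synthesis, lowest at 0.25. Of 6 heat shock and folding genes Cryab alone was in, and Calr, an endoplasmic reticulum chaperone, was lowest at 0.40.

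Regulators in the module other than Trp53 and Jun were Dnmt3l and Zfpm1. Dnmt3l, the cofactor of the de novo DNA methyltransferases (chromosome 10, 78042287 to 78063622), was at 5.81, 4.78 and 7.03 FPKM in EGFP 8-cell, 16.4, 18.3 and 33.8 in p150DN and 28.3 and 27.2 in blastocyst libraries. By library its fractions were 0.65, 0.72 and 1.13, and without replicate 3 its fraction was 0.69, under the threshold. Zfpm1, a cofactor of GATA factors also called FOG1 (chromosome 8, 122281856 to 122337862), was at 2.27, 4.06 and 4.73, at 20.1, 16.2 and 23.4, and at 18.6 and 18.6 FPKM (fraction 1.04). Of 8 blastocyst genes in the list of other transcription regulators Dnmt3l alone was in the module, while Elf3, an epithelial ETS factor, had 0.76, Tet2, a DNA demethylation enzyme, 0.64 and Tfap2a 0.19.

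Most of the module lies outside any list. L1td1, an RNA-binding protein gene derived from a LINE-1 element (chromosome 4, 98726754 to 98738486), was at 3.33, 3.63 and 2.74 FPKM in EGFP 8-cell, 49.2, 29.8 and 49.5 in p150DN and 50.8 and 87.9 in blastocyst libraries (fraction 0.83). Psrc1, which encodes a spindle protein (chromosome 3, 108383804 to 108388231), was at 16.7, 6.89 and 11.1, at 52.2, 31.2 and 37.5, and at 47.6 and 49.5 FPKM (0.86). Avpi1 (chromosome 19, 42123275 to 42128993) was at 6.69, 8.10 and 5.62, at 37.97, 28.97 and 26.4, and at 39.3 and 44.9 FPKM (0.82). L1td1 and Avpi1 were wholly below blastocyst level and Psrc1 overlapped it, each with 1 or 2 p150DN libraries under 0.8.

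Cdc42ep5, an effector of the GTPase CDC42, was at 7.62, 2.95 and 3.51 FPKM in EGFP 8-cell, 15.9, 30.4 and 34.7 in p150DN and 31.3 and 37.2 in blastocyst libraries. Its p150DN replicate 1 had come less far, with a fraction of 0.61, than the other two with 0.94 and 1.01. Ptgr1, a reductase of prostaglandins and reactive aldehydes, was at 2.33, 3.48 and 3.24, at 17.0, 21.3 and 32.7, and at 32.1 and 36.1 FPKM (0.82). Rcan1, an inhibitor of calcineurin, was at 2.71, 1.84 and 3.72, at 12.5, 27.3 and 17.1, and at 19.6 and 15.8 FPKM (1.01). Plxna1, a receptor of semaphorins (chromosome 6, 89316313 to 89362613), had the tightest p150DN values of the module, 18.19, 17.98 and 17.94 FPKM, against 3.50, 3.81 and 5.30 in EGFP 8-cell and 26.4 and 15.4 in blastocyst libraries (0.92). Its blastocyst libraries lay on either side of the p150DN libraries.

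The other genes had p150DN means of 8.53 to 17.2 FPKM. Those at or above a fraction of 0.9 were Fam129b (now Niban2; 0.99), Wdr35, a subunit of the intraflagellar transport complex (1.03), H2bu2 (0.91) and Suox, sulfite oxidase (0.90). Those from 0.8 to 0.9 were Grb7, a signalling adaptor (0.86), Shkbp1 (0.86), Dlc1 (0.84), Mlec, a lectin of the endoplasmic reticulum (0.83), Abhd4 (0.82), Camsap3, which caps microtubule minus ends (0.81), and Calcoco1, a receptor of selective autophagy (0.81). H2bu2, a histone H2B gene on chromosome 11, was the least even, with 3.19, 11.1 and 15.3 FPKM in the p150DN libraries. It rests on 6 to 22 fragments per EGFP 8-cell library over a gene model of 462 bases, and histone genes have near-identical copies, so it is uncertain. Cryab, Fam129b, Grb7 and Dnmt3l overlap another gene of the table (Hspb2, Lrsam1, Mien1 and Aire among them) and are uncertain as well, because the strand setting of the counting is not given in the sources used here.

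Set against the blastocyst, 8 module genes had a p150DN mean of log2 values at or above that of the blastocysts: Pmaip1, Perp, Serpine2, Phlda3, Btg2, Zfpm1, Wdr35 and Rcan1. Of these 4 were p53 targets. By mean FPKM Jun (18.2 against 17.8) and Hmox1 (22.5 against 22.4) were also above. In 3 of the 38 (7.89%) all p150DN libraries lay above both blastocyst libraries, where 27.1% of the 12648 genes tested did, and in 17 (44.7%) all lay below, where 33.8% did. Over the 453 blastocyst genes the shares were 0.662% above and 92.1% below. By limma Pmaip1 was higher in p150DN than in blastocysts (adjusted p below 0.05 for 11.9% of genes tested), and Sdc4, Pkp2 and Camsap3 were lower (14.2%). The limma adjusted p-values were 0.038 for Pmaip1 and Sdc4, 0.035 for Pkp2 and 0.045 for Camsap3, and no module gene was called when blastocyst replicate 1 was left out. The rule used this contrast as well, so nothing is read from these counts.

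The module genes were not equally far along in each p150DN library. The fraction was at least 0.8 in 29 of the 38 in replicate 1, 24 in replicate 2 and 35 in replicate 3, and in all 3 libraries for 17 genes, in 2 for 16 and in 1 for 5. Replicate 3 was the highest for 20 module genes and replicate 2 the lowest for 17. Of the 453 blastocyst genes, replicate 3 was the highest for 267 and replicate 2 the lowest for 265. Their median fractions were 0.60, 0.53 and 0.66 in replicates 1, 2 and 3, where the module had 0.89, 0.89 and 0.95. The genes that differed most between the p150DN libraries were H2bu2 (SD of 1.03 on the log2 scale, n = 3), Hmox1 (0.90), Pmaip1 (0.59), Cdc42ep5 (0.58) and Dnmt3l (0.54), and those that differed least were Plxna1 (0.01), S100a11 (0.07), Ccng1 (0.08), Sdc4 (0.10) and Perp (0.11). The plot of fractions by replicate shows this spread.

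**Figure D3:**
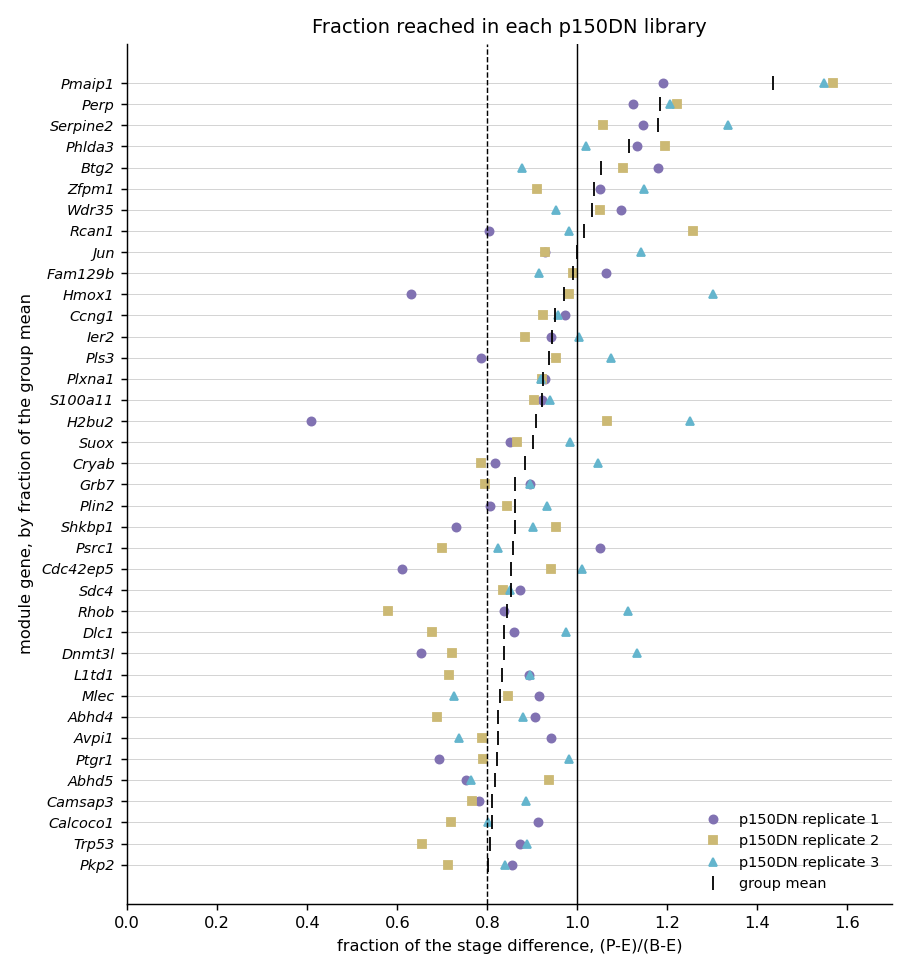
Fraction of the stage difference, (P-E)/(B-E), of the 38 module genes in p150DN replicates 1 (circles), 2 (squares) and 3 (triangles), with the value of the group mean as a black bar. The dashed line marks 0.8 and the solid line 1, and 17 genes have all 3 libraries at or above 0.8.

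The rule was also applied without each p150DN library, and the fraction was then read in that library. It still uses the EGFP libraries that chose the genes, so it is not independent of the choice. When p150DN replicate 1 was left out, the rule chose 52 genes, and these had a median fraction of 0.72 in the library left out, with 22 of 52 at or above 0.8, against 0.60 for all blastocyst genes. For replicate 2 the values were 52 genes, a median of 0.79, 23 at or above 0.8, and 0.53 for all. Without replicate 3 the rule chose 30 genes, with a median of 0.94 in it, 25 of 30 at or above 0.8, and 0.66 for all. All genes so chosen lay above the 3 EGFP 8-cell libraries in the library left out. No share over all blastocyst genes is given beside this. With all libraries, 423 of the 453 blastocyst genes were called higher in p150DN by limma, so it does not set the module apart. Each library left out is a single library, so these are descriptions without a test. Of the 38 genes, 15 were chosen whichever of the 8 libraries was left out: Pmaip1, S100a11, Btg2, Cryab, Fam129b, Ccng1, Jun, Phlda3, Pls3, Plin2, Hmox1, Grb7, Rcan1, Suox and Shkbp1. Those lost most often were Pkp2, Plxna1, Mlec and Trp53, in 4 or more of the 8.

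At the threshold of 0.8 the genes lay close together. Just inside were Pkp2 (0.801), Trp53 (0.805), Calcoco1 and Camsap3 (0.811 each) and Abhd5 (0.818). Just outside were Eif4ebp1, an inhibitor of translation initiation (0.7996), Cat (0.799), Sqstm1 (0.798), S100a10 (0.794) and Srarp (0.792). A threshold of 0.7 would give 114 genes and one of 0.9 would give 18.

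The gene lists differed in how far their blastocyst genes had come, as the plot by list shows. The p53 targets had all 5 of 5 in the module, the immediate early genes 3 of 5 (median fraction 0.84), and no other list more than 2. The 16 trophectoderm markers had a median of 0.63 and a highest value of 0.77 (Lrp2, the endocytic receptor megalin). Krt18, the keratin gene, stood at 0.76, and the transcription factor genes Eomes, Gata3 and Cdx2, named after their values were seen, stood at 0.75, 0.65 and 0.56, with Id2 (0.42), Tfap2a (0.19) and Dppa1 (0.17) lowest. Whether the p53 and trophectoderm lists differ was not tested. The trophectoderm markers had a larger rise between the stages, with a median B-E of 4.01 against 2.79 for the p53 targets. B-E is the divisor of the fraction. The median P-E of the trophectoderm markers was 2.32, against 2.93 for the p53 targets.

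**Figure D4:**
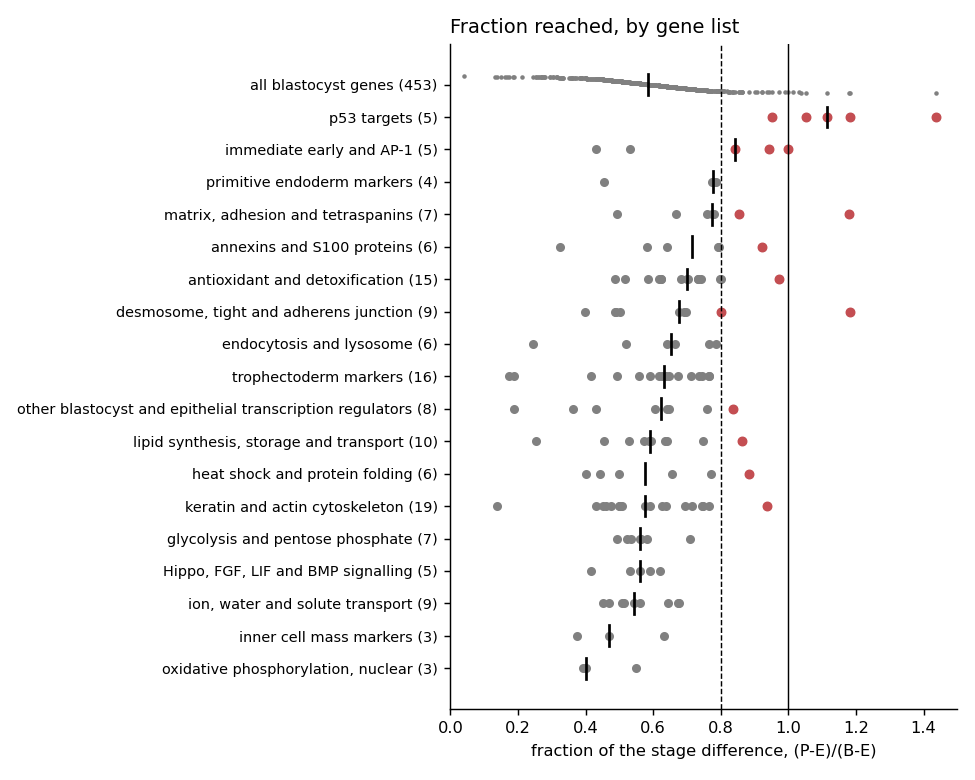
Fraction of the stage difference, (P-E)/(B-E), for each blastocyst gene (points, red where at least 0.8), by gene list with at least 3 such genes (number in brackets), with the median as a black bar. The 5 p53 targets lie between 0.95 and 1.44 and the 16 trophectoderm markers between 0.17 and 0.77, and the top row shows all 453 genes with a median of 0.59.

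Of the 27 trophectoderm markers tested 18 rose and 1 fell in p150DN (limma, 24.6% and 9.68% over all genes tested), with a median log2 difference of 1.71 against 0.19 over all genes tested. Krt18, at 6.79, 6.78 and 4.36 FPKM in EGFP 8-cell and 117, 147 and 241 in p150DN libraries (4.56 ± 0.26, adjusted p = 5.5e-05), Lrp2 (4.48 ± 0.36, adjusted p = 0.00017) and Ptges, a prostaglandin synthase (3.27 ± 0.25, adjusted p = 0.00017), led it. Their blastocyst levels were higher still, 418 and 435 FPKM for Krt18, which left them outside the module. Without p150DN replicates 2 and 3 the median log2 difference of the 18 tested was 1.06, against 0.10 over all genes tested. The count of risen markers was 11 without replicate 3 and 10 with a filter of 5 FPKM, where 1488 and 1812 genes in all rose. Among the inner cell mass markers the 3 blastocyst genes were Sox2, Nanog and Tfcp2l1, with fractions of 0.37, 0.47 and 0.63, and the 4 of the primitive endoderm list (Apoe, Lamc1, Col4a1 and Dab2) had 0.45 to 0.78. None of the 6 endocytosis, 9 transport, 7 glycolysis, 5 signalling, 3 oxidative phosphorylation, 2 amino acid, 2 antigen presentation or 1 secretory genes was in the module.

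Genes of the same lists outside the module were tested in p150DN embryos, where over all genes tested 24.6% rose and 9.68% fell. In the junction list 18 of 25 tested rose and 1 fell, led by the desmosomal linker Dsp (2.98 ± 0.32, limma adjusted p = 0.00048), and median-of-ratios scaling gave 11 and 3. In the annexin and S100 list 10 of 12 rose and none fell, led by Anxa2 (4.28 ± 0.28, adjusted p = 8.9e-05), and quantile normalization gave 8 and 1. In the antioxidant list 25 of 38 rose and 3 fell, led by the aldo-keto reductase gene Akr1b8 (4.56 ± 0.44, adjusted p = 0.00033). In the lipid list 27 of 54 rose and 4 fell, led by the desaturase gene Scd2 (4.30 ± 0.24, adjusted p = 4.4e-05), and the 2 scalings gave 18 and 9, and 16 and 8. In the heat shock list 16 of 31 rose and none fell, led by Hspb8 (3.78 ± 0.26, adjusted p = 0.00012), and median-of-ratios scaling gave 13 and 2. In the matrix list 16 of 32 rose and 2 fell, led by Plau, the urokinase gene (3.18 ± 0.38, adjusted p = 0.00072). In the keratin and actin list 32 of 48 rose and 1 fell. In the list of other transcription regulators 13 of 41 rose and 7 fell, with a median of 0.15, under the 0.19 of all genes, and median-of-ratios scaling gave 10 and 11 and quantile normalization 8 and 8. Without p150DN replicates 2 and 3, where 12.5% of all genes tested rose and 9.7% fell, 7 rose and 2 fell of 22 in the junction, 11 and 1 of 31 in the antioxidant, 13 and 7 of 47 in the lipid, 3 and 4 of 23 in the matrix and 6 and 6 of 34 in the regulator list. The median of all genes tested was 0.19 in p150DN and moved to -0.08 with median-of-ratios scaling and -0.03 with quantile normalization, where 1682 and 1779 genes were called higher and 2358 and 1833 lower in place of 2887 and 1136. All 38 module genes were called higher under both, and their median difference was 2.14 under each. P-E of the same libraries chose them, so nothing is read from this. When the rule was applied to the scaled values, 20 of the 38 still met it with median-of-ratios scaling and 24 with quantile normalization.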

How the data were processed

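Total RNA from embryo lysates was made into stranded SMART-seq libraries, per the labels' protocols, and the deposited table gives FPKM per gene symbol. The submitters' processing notes name Trim Galore, HISAT2, SAMtools, featureCounts and the build mm10, with no versions. The annotation and strand setting were not given in the sources used here. The 8-cell columns without DN were taken as the EGFP 8-cell libraries, the other 8-cell RNA group in the labels. The 65 samples that are not RNA-seq were not analysed here.

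Values were used as log2(FPKM + 1). Differences were fitted with limma 3.58.1 (lmFit, eBayes with trend, two-sided, Benjamini-Hochberg adjustment over all genes tested, R 4.3.3) on the compared groups, after dropping genes that reached 1 FPKM in fewer than 3 libraries (between the 8-cell groups) or fewer than 2 (contrasts with blastocysts), with a threshold of 0.05. Genes below 1 FPKM in every EGFP 8-cell library entered the comparison of the 8-cell groups only through p150DN libraries. Among those named here were Ephx1, Fosl1, Ptges, Hspb8 and Plau, so their p-values are descriptions. Fold changes on this scale understate those of low genes. The fragment totals came from the most common value of FPKM times gene length among short RNA genes (symbols beginning with Mir or Snor), taken as 1 fragment. With these totals, a gene length was then searched for each of the 453 blastocyst genes. For all 453 a length was found that made the fragments whole in all 8 libraries (within 0.05 of a fragment). At these depths 1 FPKM is few fragments for a short gene, so low values carry more counting error. Of these steps, only the limma fits were run on simulated data. Positions and promoters came from RefSeq tables of GRCm38.p6.

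The members and lists were chosen with earlier results of these data known, so list counts are descriptions. Named genes were the 12 module genes with the largest P-E, the 8 with the largest P-B, the 5 most and 5 least variable over p150DN libraries, 5 on each side of the threshold, the list genes in the module, the 10 highest in no list, and in each list up to 3 lowest blastocyst genes and up to 3 largest called genes outside the module. Alternatives were other pseudocounts, scalings, filters and rule thresholds, 1 fit over 8 libraries, a replicate block, leaving out each library, and, added after seeing the data, leaving out p150DN replicates 2 and 3. A gene that this rule names is not reported here.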

Additional observations from a re-analysis of the deposited data

How the results depend on the processing

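The number of module genes was 64 with a pseudocount of 0.1, 20 with median-of-ratios scaling, 114, 18 and 8 at fractions of at least 0.7, 0.9 and 1, 154 and 11 with B-E of at least 1 and 3, and 19 with a blastocyst level of at least 20 FPKM. Leaving out single libraries gave 30 to 52 genes, and a pseudocount of 0.5, quantile normalization, a level of 5 FPKM and leaving out p150DN replicates 2 and 3 gave 52, 26, 57 and 46. The share of blastocyst genes in the module was 11.6% with a pseudocount of 0.1, 5.83% with median-of-ratios scaling, 25.2%, 3.97% and 1.77% at the 3 other fractions, and 6.62 to 11.5% without single libraries. With either scaling 4 of the 5 p53 targets stayed in the module. Perp was lost under both scalings, and so was Trp53 itself, which is not in that list. No trophectoderm marker was in it except 1 with a pseudocount of 0.1, with B-E of at least 1, and without EGFP 8-cell replicate 2, blastocyst replicate 1 or p150DN replicate 2, 2 without p150DN replicate 1 or blastocyst replicate 2, and 5 at a fraction of 0.7.

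Genes called in p150DN against EGFP 8-cell embryos numbered 4023, 2238 to 3553 without single libraries and 2314 without p150DN replicates 2 and 3. For blastocysts against EGFP 8-cell embryos the number was 8236, and 5459 to 8144 without single libraries. For p150DN against blastocysts it was 3301, 1555 without a filter on low values and 323 to 4215 without single libraries. The 4 module genes called there became 2 with quantile normalization, 0 without a filter and 0 to 5 without single libraries. Of 456 values of the fraction under other settings 440 moved by less than the spread between replicates, 16 moved further and none reversed. Of 456 values of P-E 84 moved further and none reversed. Leaving out any p150DN library cannot shift a mean by more than the spread of these libraries, so those settings could not count as moved. A reversal would need a change of sign in genes chosen for a high fraction, so nothing is read from its absence.

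Deviations from the group means of same-numbered p150DN and EGFP 8-cell libraries correlated at 0.047, 0.089 and 0.036. p150DN replicate 1 correlated best with EGFP 8-cell replicate 3 (0.070). Replicates 2 and 3 each correlated best with the EGFP 8-cell library of the same number. All these correlations were small, and deviations from means of 3 libraries cannot settle whether the numbers pair the libraries. With a replicate block 4081, 7861 and 3072 genes were called in the 3 comparisons and 7 module genes against blastocysts.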
